A study of Danio rerio with 2 samples.

Results

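The cytosolic ribosomal protein genes were followed as a set in single cells of zebrafish embryos. They were chosen by name, as every gene whose symbol begins with rps or rpl and a digit or with rplp0, rplp1 or rplp2. The 11 rps6k genes, which encode kinases, were left out. The rule took 80 of the 25743 genes listed, 47 named for the large and 33 for the small ribosomal subunit, under 79 different symbols, because rpl37 was listed under 2 gene identifiers. The rule used no measured value of a gene.

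Cytosolic ribosomes are made of a small and a large subunit, each of ribosomal RNA and a fixed set of ribosomal proteins, most of them present once in each ribosome. The messages of these proteins are among the most abundant of any growing cell, and in vertebrates they begin with a pyrimidine tract through which their translation follows growth signals. Loss of a single ribosomal protein impairs ribosome assembly and stabilises p53, and red cell precursors are known to be sensitive to it: in human, mutations of RPS19 and several other members cause Diamond-Blackfan anaemia.

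GFP-positive cells were sorted at the 20-somite stage from etv2ci32Gt; UAS:GFP embryos, in which Gal4 inserted into the coding sequence of etv2, a regulator of blood and vessel formation, drives GFP and disrupts the gene. One group of pooled embryos was heterozygous and the other homozygous for this insertion, so that the comparison group also carried 1 disrupted copy. There was 1 Chromium library per genotype. Genotype and library therefore cannot be told apart, no test between genotypes was possible, and every interval below is a 95% interval for counting error only.

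After filtering, 1608 heterozygous and 473 homozygous cells were kept, with medians of 10037 and 13079 UMIs (unique molecular identifiers, 1 per captured message), and the libraries shared 0 cell barcodes. The etv2 message, meant as a check of the labels, stood at 290.2 CPM (counts per 1000000 UMIs) over all heterozygous and at 15 CPM over all homozygous cells. It was not compared within classes. The libraries also differed in makeup, as given below, so these values alone do not settle the labels. A ratio at least 25% above or 20% below 1 was taken as past the limit for a single gene. Cells were grouped with the ribosomal protein genes left out, so that the share of these genes played no part in the grouping. Classes were named after marker genes, and "-like" marks that the names rest on markers alone. RBC stands for red blood cell, EPC for endothelial progenitor cell and LPM for lateral plate mesoderm. The p53 response-like cells were led by targets of p53: in the larger of their 2 clusters cdkn1a was 7.72-fold, mdm2 5.29-fold and pmaip1 4.92-fold higher than in other heterozygous cells. The sum of the listed p53 markers was no higher there (6598 CPM) than in neural-like heterozygous cells (7308 CPM). These cells also held RBC markers, at 5663 CPM when heterozygous and 9691 CPM when homozygous, where RBC-like cells had 35667 and 48768 CPM, and the part of this in their ribosomal protein share was not tested. One group, cluster 10, had as many EPC as LPM markers and was given no name. Endothelial-like, EPC-like and macrophage-like cells numbered 2, 5 and 3 in the homozygous library and were not compared between genotypes.

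Ribosomal protein messages made up 40.6% of the UMIs of kept heterozygous cells and 42.1% of those of homozygous cells. They were spread over many members: 76 of 80 had over 10000 UMIs, and the 10 with the most UMIs held 24.0% of the set. These were rplp1, rpl39, rpl32, rpl37 (ENSDARG00000034291), rps15a, rps2, rplp0, rpl36a, rplp2l and rps19. The highest of them, rplp1, which pairs with Rplp2 on the stalk of the large subunit, stood at 13874 CPM in heterozygous and 13994 CPM in homozygous cells, and rps19 at 8081 and 8453 CPM. UMIs count captured messages and were not divided by message length. When every cell was thinned at random to 2500 UMIs, 69 members were seen in at least 99% and 75 in at least 90% of heterozygous cells. The exceptions were rpl5b, the second copy of the 5S RNA-binding protein Rpl5, in 85.9% of cells, rpl7l1 in 38.0%, rps19bp1 in 29.2%, rpl37 (ENSDARG00000076360) in 4.98% and rps8b in none. The last gene had 5 UMIs in all cells together and was the only member with fewer than 100.

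With every cell thinned to the same number of UMIs, the share of ribosomal protein messages differed between classes. It ran from 47.2% in myocyte-like to 37.2% in tailbud-like heterozygous cells. Thinning gave each cell the same weight but left its expected share unchanged. A link between the share and original depth, described below, was therefore not removed. Myocyte-like cells (20 cells, 46.8 to 47.6%), p53 response-like cells (231 cells, 45.2%, 45.1 to 45.4%) and cluster 10 (62 cells, 44.9%, 44.7 to 45.2%) stood highest, and the intervals of the last 2 overlapped. Cardiomyocyte-like, endothelial-like and EPC-like cells followed at 41.2, 41.1 and 41.0% and did not differ beyond counting error, and macrophage-like cells stood at 40.3%. The endothelial-like value joins clusters of unlike share. Unthinned, cluster 1 (238 cells) had 42.1% and cluster 5 (139 cells) had 38.8%. The cardiomyocyte-like value rests on 20 cells, of which the median cell had 38.9% and the 9 cells with fewer than 5000 UMIs an unthinned share of 43.3%. LPM-like, neural-like and epidermal-like cells had 39.6, 39.5 and 39.3%, again with overlapping intervals. The lowest shares of all UMIs, globin included, were those of 2 classes that stood apart below these. RBC-like cells (241 cells) had 37.8% (37.7 to 37.9%) and tailbud-like cells (35 cells) 37.2% (36.8 to 37.5%).

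The homozygous library gave the same 3 groups at the top and, of all UMIs with globin included, the same 2 at the bottom. Myocyte-like cells (22 cells) had 48.4%, cluster 10 (26 cells) 48.3% and p53 response-like cells (76 cells) 46.3%. RBC-like cells (122 cells) had 39.4% and tailbud-like cells (26 cells) 39.8%. Relative to the other cells of the same library, the share in RBC-like cells was 0.909 times (0.905 to 0.913) among heterozygous and 0.903 times (0.897 to 0.909) among homozygous cells. In myocyte-like cells it was 1.15 times in both, and in p53 response-like cells 1.12 and 1.11 times. Epidermal-like cells stood below the others when heterozygous (0.957 times) and above them when homozygous (1.03 times).

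**Figure D1:**
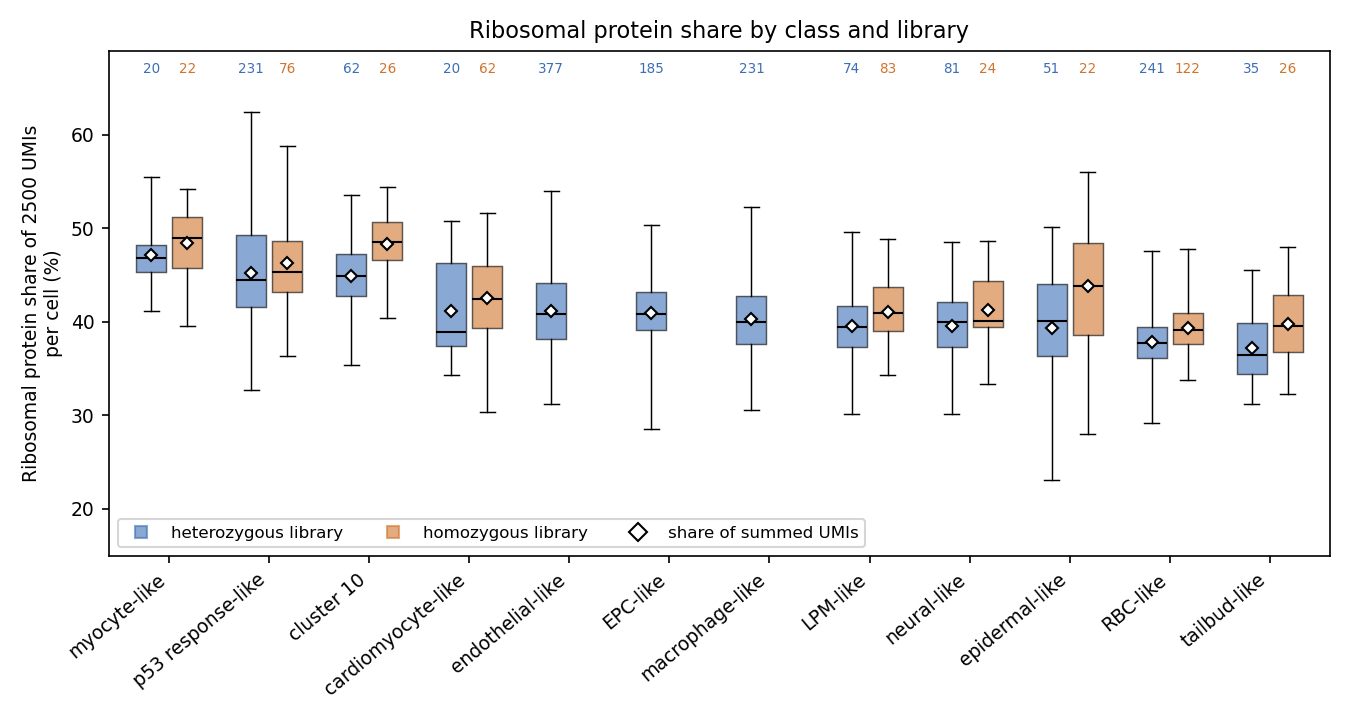
Share of ribosomal protein genes (y axis, percent of 2500 UMIs per cell) in each class (x axis) of heterozygous (blue) and homozygous (orange) cells, with boxes from the first to the third quartile of cells, a line at the median, whiskers to the lowest and highest cell, diamonds for the share of summed UMIs and cell numbers on top. Single cells of different classes overlapped widely, while the summed share ran from 37.2% in tailbud-like to 47.2% in myocyte-like heterozygous cells.

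The spread between single cells was wide within each class. The middle 50% of heterozygous RBC-like cells lay between 36.2 and 39.4%, and that of p53 response-like cells between 41.6 and 49.3%. The latter held clusters of unlike depth: cluster 2, with a median of 15890 UMIs, had a share of 43.2% (43.0 to 43.3%), and cluster 7, with 4328 UMIs, had 48.3% (48.1 to 48.5%), while RBC-like clusters 0 and 12 had 38.0 and 37.1%. In homozygous cells clusters 2 and 7 stood at 45.3 and 48.6%, and cluster 2 held 71.1% of the class against 59.3% in heterozygous cells. Across all heterozygous cells the unthinned share was lower in deeper cells (Spearman's rho -0.20 over 1608 cells, with the UMIs in both measures), at 43.3% of the UMIs of cells with 2500 to 5000 UMIs and 40.4% of those with over 15000. Within classes this did not hold throughout, and in RBC-like cells rho was 0.19 over 241 heterozygous and 0.17 over 122 homozygous cells. Among cells with over 15000 UMIs, the p53 response-like ones still had 43.7% and the RBC-like ones 38.3%.

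Globin messages took 3.42% of the UMIs of heterozygous RBC-like cells. Of non-globin UMIs, 39.3% were ribosomal protein messages in RBC-like cells, next to 39.4% in LPM-like and neural-like cells, all unthinned. In homozygous RBC-like cells globin took 4.76% of UMIs. Of non-globin UMIs there, 41.5% were ribosomal protein messages, next to 41.1% in LPM-like and 41.7% in neural-like cells. Homozygous tailbud-like cells had 39.9%, so RBC-like cells were not at the bottom on this measure. Large-subunit members made up 63.1% of ribosomal protein UMIs in RBC-like and 62.9% in macrophage-like cells, against 61.3 to 62.4% in the other classes of the library. In homozygous RBC-like cells this share was 62.5%, below the 62.8% of homozygous myocyte-like cells.

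Within the set the proportions of the members were held closely across classes. The ratio of the highest to the lowest class, per UMI of the set, had a median of 1.17 over the members and was under 1.5 for 75 of the 79 members with 100 or more UMIs. The evenest were rpl22 (1.06-fold), rpl28 (1.07-fold) and rpl13 (1.07-fold), all of the large subunit. The 4 at 1.5-fold or more were rpl3 (1.51-fold, highest in EPC-like and lowest in RBC-like cells), rps19bp1 (2.37-fold), rpl7l1 (3.10-fold) and rpl37 (ENSDARG00000076360). The last had 0 UMIs in the 20 cardiomyocyte-like cells, so its ratio has no finite value. At its low level this 0 lies near the counting floor.

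**Figure D2:**
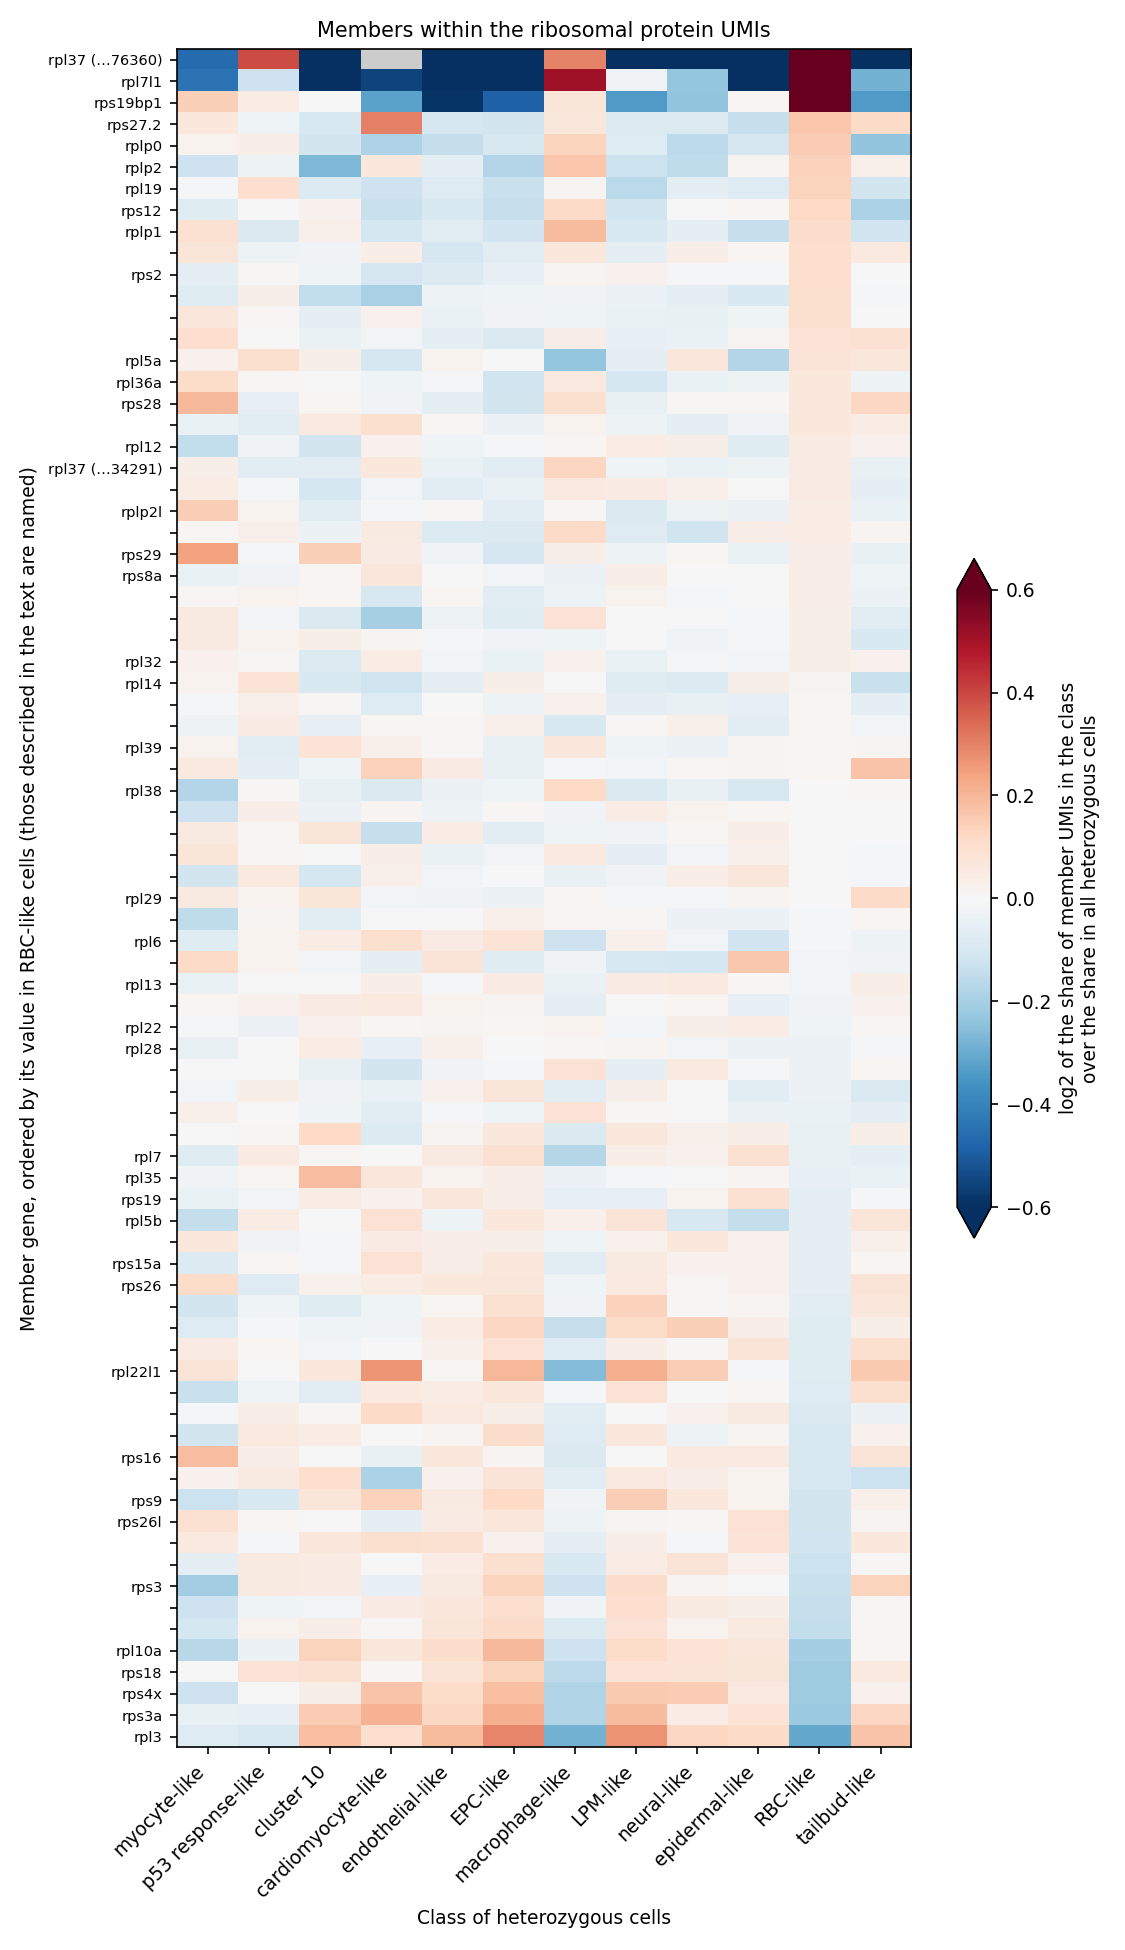
Each member gene (rows, 79 with at least 100 UMIs, ordered by RBC-like cells, with the names of those described in the text) in each class of heterozygous cells (columns); colour gives the log2 ratio of the gene's share of ribosomal protein UMIs in the class to that in all heterozygous cells, the class included, with values beyond 0.6 in either direction in the end colours and grey for 0 UMIs. Rows rpl3, rps3a, rps4x, rps18 and rpl10a at the bottom are low in RBC-like and macrophage-like and high in EPC-like cells.

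In heterozygous RBC-like cells 65 of 79 members had an interval below 1 and 8 an interval above it. Past the limit were 5 core members, which were lower, and 3 members of low level, which were higher. The protein Rpl3, which lies next to the site where peptide bonds are made, had its message at 2859 CPM in heterozygous RBC-like cells and 4007 CPM in other heterozygous cells, a ratio of 0.714 (0.698 to 0.729). The small-subunit genes rps3a, rps4x and rps18 had ratios of 0.765, 0.771 and 0.772, and rpl10a, of the mobile stalk beside the exit of transfer RNA, 0.776. These were the 5 members at least 20% lower, of 79 tested, where 37.7% of all 6754 genes tested were lower by as much. Of the members, 68 stood below and 11 above a ratio of 1, where 47.1% of all genes stood above 1. The member median was 0.917 beside 0.960 over all genes. Per UMI of the set, rpl3 remained past the limit with a ratio of 0.775 and the other 4 did not, at 0.831 to 0.843.

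The same 5 genes were at least 20% lower in RBC-like cells of the homozygous library, against its own other cells. There rpl3 stood at 2799 against 4231 CPM, a ratio of 0.661 (0.642 to 0.681), and rps3a, rps4x, rps18 and rpl10a had ratios of 0.713, 0.747, 0.751 and 0.760. A sixth member, rps3, whose protein lines the entry of the message into the small subunit, passed the limit there too, where 30.5% of all 3865 genes tested were lower by as much. The other cells of this library held few endothelial-like, EPC-like and macrophage-like cells, so the groups set against RBC-like cells differed in makeup between the libraries.

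The members that stood higher in RBC-like cells were rpl37 (ENSDARG00000076360), rpl7l1 and rps19bp1. The gene rpl7l1, a relative of rpl7 found on precursors of the large subunit in human, stood at 370 CPM in heterozygous RBC-like and 206 CPM in other cells, 1.80-fold higher (1.68 to 1.92). The gene rps19bp1 encodes a protein that binds Rps19 and is no part of the ribosome, and it was 1.66-fold higher (1.53 to 1.81). The rpl37 copy was 2.49-fold higher, at 51.6 against 20.8 CPM. The same 3 members passed the limit in homozygous RBC-like cells, rpl7l1 at 1.62-fold, rps19bp1 at 1.63-fold and the rpl37 copy at 2.87-fold. In the heterozygous library 31.0% of all genes tested and in the homozygous library 33.7% were higher by as much. The genes of the acidic stalk, which receives elongation factors, did not share a direction: in heterozygous RBC-like cells rplp0 and rplp2 had ratios of 1.05 and 1.04, rplp1 1.01 and rplp2l 0.957, and in homozygous ones rplp2 and rplp1 had 1.05, rplp0 0.992 and rplp2l 0.952.

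Macrophage-like heterozygous cells shared the low rpl3 level, at 3079 against 3920 CPM in other cells (ratio 0.786, 0.768 to 0.804), the only member of 79 at least 20% lower, where 33.3% of all genes were. They also shared the higher rpl7l1 level, at 335 against 219 CPM, a ratio of 1.53. The rpl37 copy had a ratio of 1.27, with an interval of 0.993 to 1.61, and these were the 2 members at least 25% higher, where 30.9% of all genes were. The stalk genes rplp1, rplp2 and rplp0 followed at 1.16, 1.13 and 1.1, while the fourth, rplp2l, stood at 0.994, and rpl22l1, rpl5a, rps3a and rps4x stood at 0.80, 0.819, 0.853 and 0.853. EPC-like cells stood on the other side for these members. There rpl3 was the 1 member at least 25% higher, at 4662 against 3671 CPM (ratio 1.27, 1.24 to 1.3), where 25.1% of all genes were. It was followed by rps3a (1.2), rpl22l1 (1.18), rpl10a (1.18) and rps4x (1.16), while rplp2 had a ratio of 0.877. The 3 members of low level were at least 20% lower there, where 38.3% of all genes were, with rpl7l1 at 139.9 against 250.2 CPM in the other cells. Homozygous EPC-like cells were too few, but rpl3 was likewise higher in homozygous LPM-like cells (1.31) and cluster 10 (1.33).

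In the classes with a high share most members were higher together. In p53 response-like cells all 79 members tested had a ratio above 1, where 30.5% of all genes did, and 78 had an interval above 1. The member median was 1.11 beside 0.827 over all genes. Only rpl37 (ENSDARG00000076360) was past the limit, where 10.2% of all genes were higher by as much. The next were rpl19 (1.21), rpl5a, a copy of the gene whose mammalian protein binds Mdm2 (1.2), rps18 (1.19) and rpl14 (1.19), and the lowest were rpl7l1 (1.0), rpl3 (1.02) and rps9 (1.03). In homozygous p53 response-like cells 77 of 79 were above 1, with a median of 1.11 beside 0.890 over all genes.

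Myocyte-like heterozygous cells had 77 of 79 members above 1, where 30.5% of all genes were, with a median of 1.15 beside 0.694 over all genes. At least 25% higher were 8 members, where 19.1% of all genes were. Per UMI of the set 0 members were higher by as much. Among the 8 members, rps29 and rps28 both encode small proteins of the head of the small subunit. The genes rps29 (6720 against 4882 CPM, 1.38-fold), rps28 (1.33-fold), rps16 (1.32-fold) and rps19bp1 (1.29-fold, 0.893 to 1.79) led together with the stalk gene rplp2l (1.29-fold), and rps26 and rpl36a were also past the limit. At the other end rpl38 and rps3 had ratios of 1.03 and 1.0, and rpl7l1 and the rpl37 copy, with wide intervals, 0.851 and 0.840. In the homozygous library rps29 (1.35-fold) and rps28 (1.32-fold) were again past the limit, rps16 and rplp2l stood at 1.23 and 1.22, and rps3 had a ratio of 0.912. There 6 members were past the limit, where 17.5% of all genes were. Cluster 10 had 76 of 79 members above 1, where 29.0% of all genes were. At least 25% higher were 2, where 14.7% of all genes were. They were rpl35, next to the exit of the peptide tunnel, and rpl3, both at 1.27. Per UMI of the set 0 members were higher by as much. In the homozygous library 7 members of cluster 10 were past the limit, where 19.6% of all genes were, with rpl3 among them and rpl35 at 1.23. Tailbud-like cells had 3 of 79 members above 1 and 76 below, where 49.9% of all genes were above 1. At least 20% lower were 5, where 35.0% of all genes were. Among them rplp0 stood at 7335 against 9536 CPM (0.769) and rps12 at 0.796. Per UMI of the set rplp0 and rps12 were not past the limit. In homozygous tailbud-like cells these genes had ratios of 0.804 and 0.867, short of the limit.

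Other genes of ribosome formation stood higher in RBC-like cells, where most members of the set stood lower. Of 28 ribosome assembly genes tested, such as fibrillarin, nucleolin and subunits of RNA polymerase I, 26 were at least 25% higher in heterozygous RBC-like cells, beside 31.0% of all genes, with a median ratio of 1.90. Their summed share was 1.01% of UMIs against 0.557% in other cells, and they ran from polr1d (2.41) to npm1b (0.958). Of 73 mitochondrial ribosomal protein genes 64 were higher by as much, with a median of 1.57, from mrps31 (2.66) to mrps23 (0.777). In the homozygous library 24 of 28 and 58 of 70 were higher, beside 33.7% of all genes, with medians of 1.55 and 1.49. In EPC-like cells the reverse held. There 24 of 28 and 58 of 73 were at least 20% lower, beside 38.3% of all genes, with medians of 0.622 and 0.632. They ran from ubtf (1.37) to dkc1 (0.362) and from mrps23 (1.08) to mrpl43 (0.308). Neither direction was limited to these classes. In macrophage-like heterozygous cells 53.6 and 46.6% of the lists were at least 25% higher, beside 30.9% of all genes. In p53 response-like cells 42.9 and 19.2% were, beside 10.2%. At least 20% lower were 92.9 and 84.9% in endothelial-like and 92.9 and 56.2% in epidermal-like cells, next to 85.7 and 79.5% in EPC-like cells.

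The counts of other translation genes were near or below the shares of all genes. Of 6 elongation factor genes tested in RBC-like cells 2 were at least 25% higher and 1 lower, beside 31.0 and 37.7% of all genes, with eef2a.1 at a ratio of 2.22 and eef1g, a subunit of the factor that reloads eEF1A, at 0.724. Of 12 other genes whose mammalian messages begin with a pyrimidine tract 1 was higher and 3 lower, from eif4a2 (2.32) to eif4ba (0.574), and their median was 0.903. Of the 4 ribosomal proteins listed under other names none passed the limit, and faua stood lowest at 0.912. Summed, they took 1.09% of UMIs against 1.16% in other cells, a ratio of 0.936.

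For 8 members a copy or a related gene was listed, and the division of messages within the pair varied with class. How reads that match both genes of a pair were assigned is not given in the sources used here, so these divisions are uncertain. The stalk gene rplp2l held 69.4% of the pair with rplp2 in heterozygous and 71.7% in homozygous cells, lowest in macrophage-like (67.0%, 66.5 to 67.5%) and highest in myocyte-like heterozygous cells (73.3%, 71.5 to 75%). The related gene rpl22l1 held 22.7 and 24.7% of the pair with rpl22, lowest in macrophage-like cells at 19.5% (18.8 to 20.2%) and at 25.1% (24.2 to 26.0%) in EPC-like and 25.7% in LPM-like cells.

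The related gene rpl7l1 held 7.0% (6.62 to 7.39%) of the pair with rpl7 in heterozygous RBC-like, 6.55% in macrophage-like, 2.34% (2.08 to 2.63%) in EPC-like and 2.22% in endothelial-like cells, and 5.58% in homozygous RBC-like cells. The copy rpl5b held 39.4 and 39.8% of its pair in the libraries, with 43.8% in macrophage-like and 37.3% in RBC-like heterozygous cells. The copy rps27.2 held 28.7 and 29.1%, with 30.9% in RBC-like cells, and rps26l 51.5 and 53.6%. The second rpl37 identifier held 0.280 and 0.375% of its pair, with 0.557% in heterozygous RBC-like cells. For rps8b 3 heterozygous and 2 homozygous UMIs were seen beside rps8a.

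**Figure D3:**
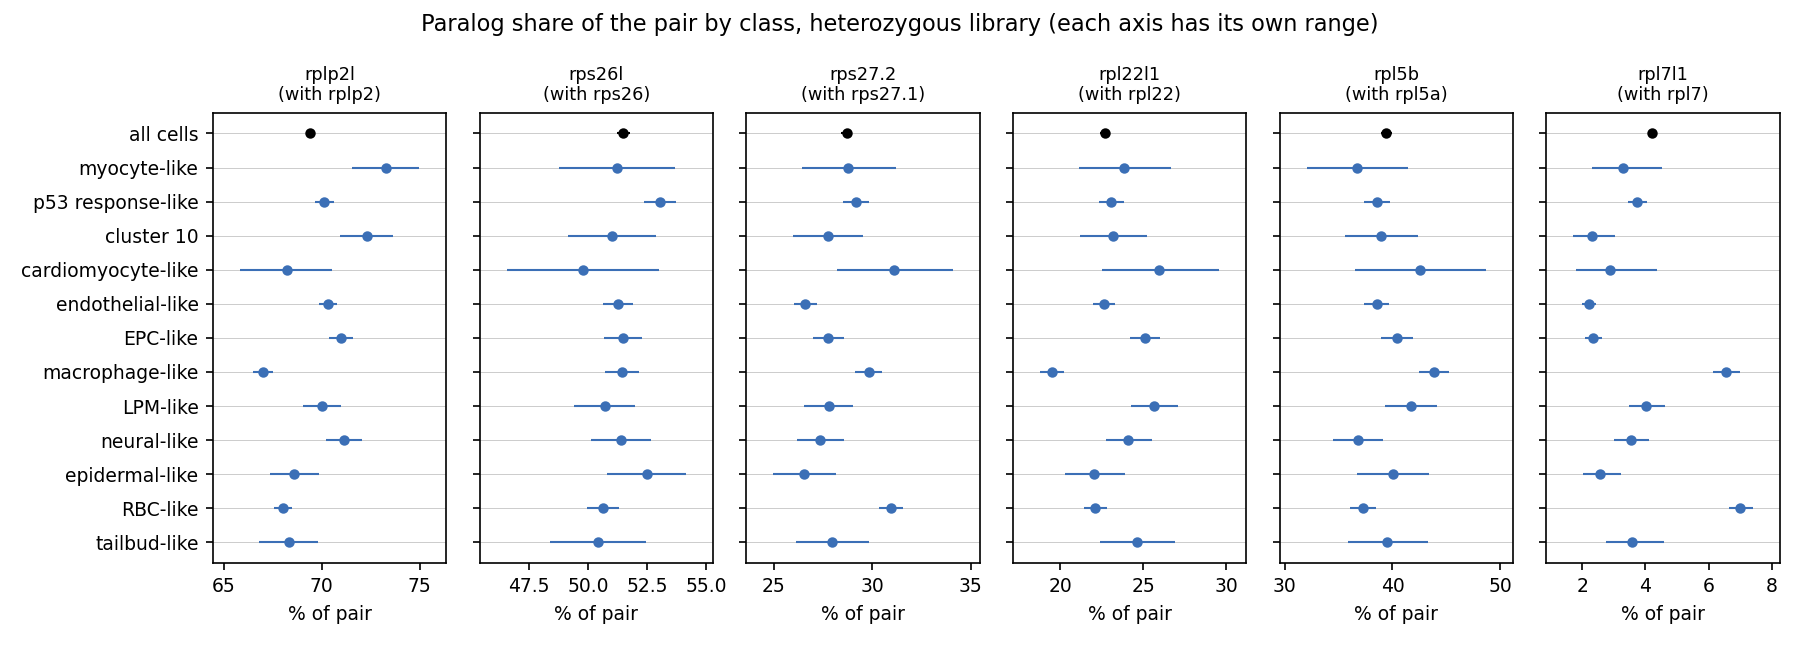
Share of a gene in the UMIs of its pair (x axes, percent, each panel with its own range) in each class of heterozygous cells (y axis), with 95% counting intervals. For rpl7l1 the RBC-like and macrophage-like points at 7.0 and 6.55% stand apart from the other classes, and for rpl22l1 the macrophage-like point at 19.5% is the lowest.

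Along the globin share of RBC-like cells the share of ribosomal protein messages changed little. Cells were thinned to 2500 UMIs, ordered by the share of 14 globin genes and divided into 4 parts, and the ribosomal protein share was taken of non-globin UMIs. In heterozygous cells it was 38.6, 37.9, 39.6 and 40.1% from the lowest to the highest part, at median globin shares of 0.680, 1.80, 3.44 and 6.32%. In homozygous cells it was 41.2, 40.4, 41.5 and 41.9%, at globin shares of 1.96, 3.56, 4.90 and 7.76%. In both libraries the second part was the lowest and the fourth the highest.

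The highest part stood 1.04-fold (1.03 to 1.05) above the lowest in heterozygous and 1.02-fold (1.0 to 1.03) in homozygous cells. Of all UMIs, globin included, the direction turned, with ratios of 0.979 and 0.953. Over single cells Spearman's rho between globin and ribosomal protein share of non-globin UMIs was 0.29 over 241 heterozygous and 0.15 over 122 homozygous cells, where the points of each library share that library and the same counts gave both measures. Depth moved with globin as well. Between the outer parts its median rose from 10859 to 17717 UMIs in heterozygous and from 15822 to 20810 UMIs in homozygous cells. The ribosomal protein share of non-globin UMIs had a rho of 0.29 with UMIs per cell in heterozygous and 0.28 in homozygous cells. The part of depth in the result was not tested.

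**Figure D4:**
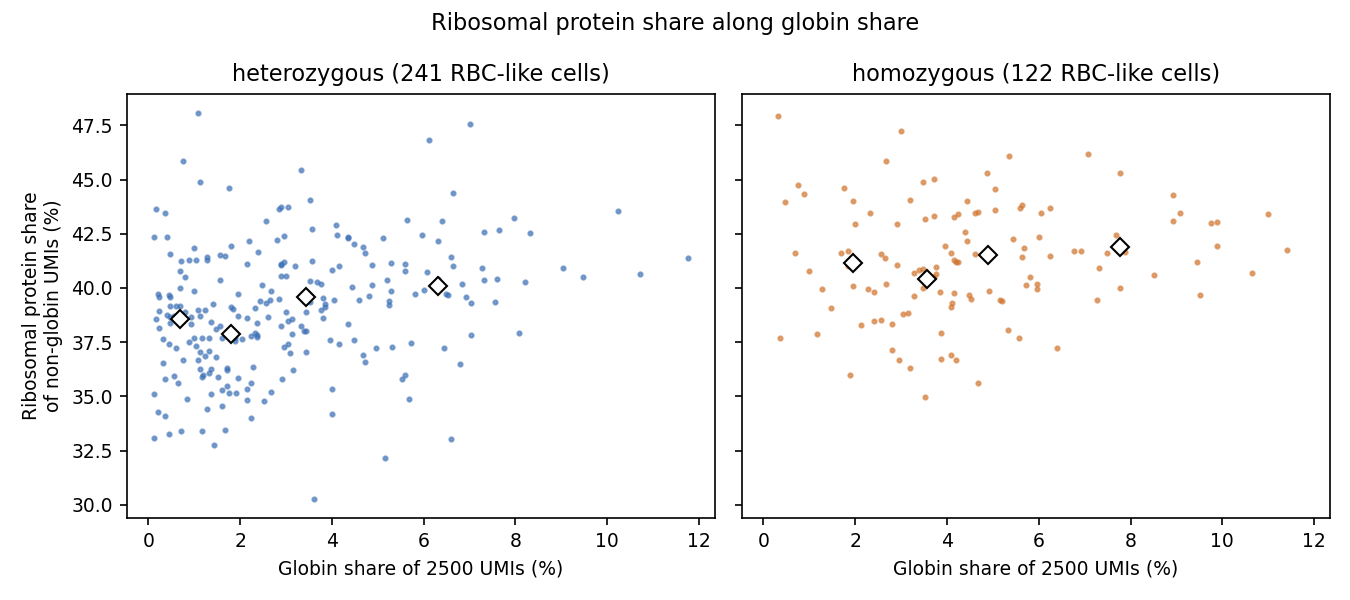
Ribosomal protein share of non-globin UMIs (y axis, percent) against globin share of 2500 UMIs (x axis, percent) in single RBC-like cells of the heterozygous (left, blue) and homozygous (right, orange) library; diamonds give the 4 parts by globin share, with 95% counting intervals mostly within the symbol. The parts run from 37.9 to 40.1% on the left and from 40.4 to 41.9% on the right, within a wide scatter of cells.

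Single members also differed little between the outer parts. Counted per non-globin UMI, 0 of 78 members tested were past the limit in either direction in heterozygous cells, where 18.9% of all genes were higher and 19.7% lower by as much. The range was 0.916 (rps4x) to 1.15 (rps29), with rpl22l1 and rplp1 at 1.15 and 1.13 and rps3 and rpl3 at 0.929 and 0.932. In homozygous cells 0 members were higher and 1 was lower, where 17.4% of all genes were higher and 17.6% lower. This was rpl7l1, at 275 against 348 CPM (ratio 0.791, 0.629 to 0.993), and the highest was rps27.2, at 1.13. Members stood above 1 in 64 of 78 heterozygous and 59 of 78 homozygous cases, where 55.1 and 53.7% of all genes did. Their medians were 1.04 and 1.02, beside 1.02 over all genes in each.

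Between the genotypes the share of ribosomal protein messages was higher in the homozygous library in each of the 9 classes compared. Cells were again thinned, which left differences in original depth between the libraries in place. Median UMIs were 8918 in heterozygous and 17592 in homozygous p53 response-like cells, and 5314 and 3835.5 in cluster 10. RBC-like cells had 37.8% when heterozygous and 39.4% when homozygous, a ratio of 1.04 (1.03 to 1.05). The smallest ratios were those of p53 response-like (1.02, 1.01 to 1.03, and 0.998 with no UMI minimum and cells thinned to 500 UMIs) and myocyte-like cells (1.03, 1.01 to 1.04). The p53 response-like class differed in makeup, with cluster 2 at 59.3% of its heterozygous and 71.1% of its homozygous cells. Shares were 43.2 and 45.3% in cluster 2 and 48.3 and 48.6% in cluster 7. The part of this makeup in the ratio was not tested. Tailbud-like cells had 37.2 and 39.8% (ratio 1.07, 1.05 to 1.09), cluster 10 had 44.9 and 48.3% (1.07, 1.06 to 1.09), and epidermal-like cells had 39.3 and 43.9%, the highest ratio at 1.12 (1.1 to 1.13).

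Over all cells, which differ in makeup between the libraries, the share was 41.0 and 42.5%, a ratio of 1.04. The difference was 1.02 to 4.56 percentage points by class, and in every class the middle 50% of cells of the genotypes overlapped. Some marker sums were unlike between the libraries in classes with the highest, the smallest and intermediate ratios. The part of this in the ratios was not tested. Epidermal markers summed to 15782 CPM in heterozygous and 7918 CPM in homozygous epidermal-like cells. EPC markers summed to 9033 and 1746 CPM in cluster 10 and to 7606 and 2353 CPM in tailbud-like cells. The tailbud markers of tailbud-like cells were closer, at 4357 and 5026 CPM. In the classes with the smallest ratios, myocyte markers summed to 3858 and 6263 CPM in myocyte-like cells. RBC markers summed to 5663 and 9691 CPM in p53 response-like cells, and their p53 markers to 6598 and 5642 CPM. In classes with ratios between those, RBC markers summed to 35667 and 48768 CPM in RBC-like cells. LPM markers of LPM-like cells summed to 4112 and 5720 CPM, and cardiomyocyte markers of cardiomyocyte-like cells to 3601 and 5597 CPM. Neural markers of neural-like cells were closer, at 5185 and 5619 CPM. Empty droplets, barcodes with 1 to 100 UMIs that hold free RNA, had ribosomal protein shares of 39.4% (heterozygous) and 39.5% (homozygous).

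Single members differed between the genotypes by more than the set. The gene rpl38 encodes a small protein of the large subunit that is required for the translation of Hox messages in mouse. It stood at 5310 CPM in all heterozygous and 7378 CPM in all homozygous cells, 1.39-fold higher (1.37 to 1.41). By class it was highest in myocyte-like cells, at 5449 and 8808 CPM (1.62-fold), and lowest in neural-like cells, at 4994 and 6509 CPM (1.3-fold). The gene rpl29, also of the large subunit, stood at 5487 and 7493 CPM over all cells (1.37-fold, 1.35 to 1.38) and between 1.26-fold and 1.56-fold higher by class. The gene rps29, a small-subunit member also mutated in Diamond-Blackfan anaemia in human, stood at 4901 and 6388 CPM (1.3-fold, 1.29 to 1.32), between 1.18-fold in neural-like and 1.46-fold in epidermal-like cells.

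Both rpl38 and rpl29 were at least 25% higher in each of the 9 classes, and rps29 in 8 of 9. Of 355 genes with at least 100 UMIs in every class, of which 76 were members, these 2 (0.563%) were the ones past the limit in every class, and 1 gene that was no member, sumo3b, was at least 20% lower in every class (0.282%). In empty droplets the 3 members did not stand apart from the others: rpl38 had 4469 and 4630 CPM (ratio 1.04), rpl29 4980 and 4579 CPM (0.919) and rps29 4376 and 4009 CPM (0.916). Together the 3 took 1.57% of heterozygous and 2.13% of homozygous UMIs. Without these 3 members, which were singled out after their values were seen, the share of all UMIs gave ratios above 1 in each of the 9 classes. The ratios ran from 1.004 in myocyte-like to 1.08 in epidermal-like cells, with 1.02 over all cells, and are given without intervals. In myocyte-like cells (20 and 22 cells) the shares, 45.2 and 45.4%, were nearly equal. The difference over all cells was 0.910 percentage points without the 3 members against 1.47 with them.

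**Figure D5:**
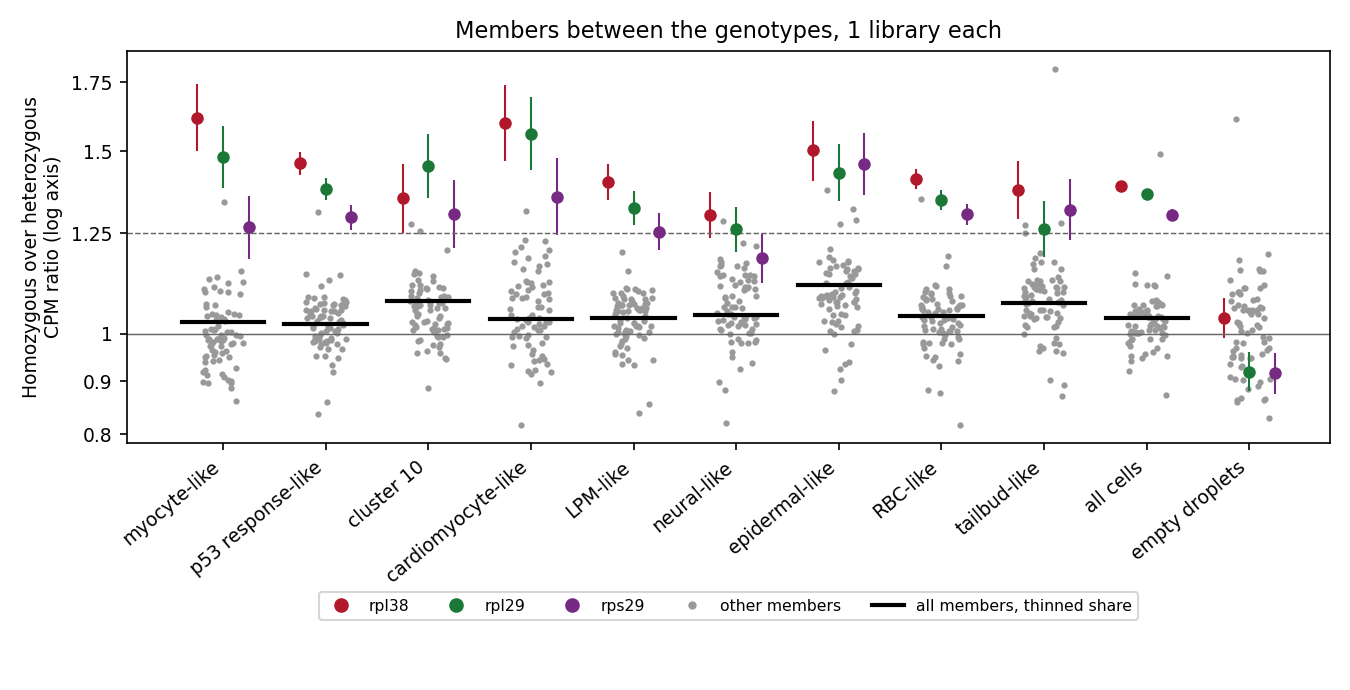
Ratio of CPM in the homozygous to the heterozygous library (y axis, log scale, dashed line at 25% higher) for each member in 9 classes, in all cells and in empty droplets (x axis); rpl38, rpl29 and rps29 are coloured with 95% counting intervals, other members are grey, and black lines give the ratio of the thinned share of all members. The coloured genes stand above the bulk of members in the classes and within it in empty droplets.

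Most other members stood close to each other. Over all cells 4 of 79 were at least 25% higher in homozygous cells, where 19.2% of all genes were, and 0 were lower by as much, where 25.7% of all genes were. The fourth was rpl37 (ENSDARG00000076360), at 39.8 against 26.7 CPM. It was followed by rps18, with a ratio of 1.14 over all cells and of 1.11 to 1.32 by class. Of the 28 genes above 1 in every class, 23 were members, and of the 27 below 1 in every class 1 was a member, rplp2. This stalk gene had a ratio of 0.872 (0.858 to 0.886) over all cells and of 0.821 to 0.974 by class, and its neighbours in the stalk stood at 0.922 (rplp0) and 1.01 (rplp1). The members rpl12, rps12 and rpl7l1 were also at the low end, at 0.942, 0.948 and 0.952.

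By class, 60 of 79 members were above 1 in RBC-like cells, where 37.5% of all genes were. Their median was 1.04 beside 0.941 over all genes. RBC-like cells had 4 members at least 25% higher, where 10.7% of all genes were. Epidermal-like cells had 7, where 14.2% of all genes were: besides the 3 above, rpl5a (1.38, 1.19 to 1.59), rps18 (1.32), rpl22l1 (1.29) and rpl6 (1.28). Tailbud-like cells had 7 too, where 12.5% of all genes were, led by rps19bp1 at 199 against 111 CPM (1.80-fold, 1.19 to 2.76). In empty droplets that gene stood at 242 against 149.9 CPM. No member was 20% lower in any class. In myocyte-like cells 35 of 77 members were above 1 and 42 below, where 44.8% of all genes were above 1. The member median was 0.995 beside 0.983 over all genes, and this was the only class with a member median under 1.

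The other lists gave no single direction between the genotypes. Over all cells 5 of 29 ribosome assembly genes were at least 25% higher and 0 lower, beside 19.2 and 25.7% of all genes, from polr1b (1.51) to npm1b (0.901), and their summed share was 0.644 and 0.721% of UMIs. In RBC-like cells none was higher and 1 lower, beside 10.7 and 20.7% of all genes, with summed shares of 1.01 and 0.927%. By class the list went either way, with 13 of 18 tested higher in neural-like and 7 of 12 in myocyte-like cells (15.6 and 16.9% of all genes), and 5 of 7 lower in epidermal-like and 3 of 7 in cardiomyocyte-like cells (27.3 and 23.6% of all genes). Of 73 mitochondrial ribosomal protein genes 3 were higher and 2 lower over all cells, from mrps5 (1.37) to mrpl22 (0.793). Of 6 elongation factor genes 1 was higher and 1 lower, from eef2a.1 (1.31) to eef1db (0.797), with summed shares of 0.519 and 0.485%. Of 12 other pyrimidine tract genes 1 was higher and 0 lower, from eif4a2 (1.58) to tpt1 (0.820). The ribosomal proteins listed under other names stood higher without passing the limit, from rpsa (1.01) to faub (1.09), and summed to 1.15 and 1.2% of UMIs.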

How the data were processed

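Alignment to GRCz10 and UMI counting were done by the authors with Cell Ranger (2.0.2 in the submitters' processing notes), who deposited raw counts of all barcodes, neither filtered nor normalized. Reads were not reprocessed. The deposited UMI counts sum to 19256969 heterozygous and 7244035 homozygous UMIs. The members and lists were chosen with earlier results of these data known.

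Barcodes with at least 2500 UMIs, 201 to 3500 genes and at most 5% mitochondrial UMIs were kept. No doublet caller was run. Cells of both libraries were clustered with Seurat 5.3.0 (R 4.3.3) on 2550 variable genes without the members, with 13 components and 30 neighbours at resolution 1.0, and a cluster took the class with the most markers at 2-fold or more, at least 3. Shares were computed on cells thinned to 2500 UMIs. Ratios of summed counts have exact conditional 95% intervals and shares exact binomial ones, which cover counting error only, and cells were not treated as replicates. A gene was tested with at least 100 UMIs on both sides together and called at 25% higher or 20% lower, unthinned. Classes needed 20 cells in each library compared. Genes were named by a rule: the 10 members with the most UMIs, the 5 highest and lowest ratios of each comparison, paralog pairs, members under 100 UMIs, and the ends of each other list. Scripts in Python 3.11.15 (numpy 2.4.6, scipy 1.17.1) were tested on simulated counts. Alternatives changed clustering, thinning, denominators, the fold, the count minimum and the treatment of free RNA. A few genes are not reported here by name.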

Additional observations from a re-analysis of the deposited data

Results flagged for a closer look

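Epidermal-like cells were below the other cells of their library when heterozygous, with a share ratio of 0.957 (0.949 to 0.966, 51 cells), and above them when homozygous, with a ratio of 1.03 (1.02 to 1.05, 22 cells). The direction thus turned between the libraries, and the difference was not tested, since there is 1 library per genotype. The middle 50% of these cells spanned 36.3 to 44.0% in the former and 38.6 to 48.4% in the latter, and their summed epidermal markers stood at 15782 and 7918 CPM.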

How the results depend on the processing

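The share of RBC-like against other heterozygous cells (0.909) stayed below 1 in all alternatives, among them 0.920 without thinning, 0.938 of UMIs neither globin nor mitochondrial, 0.896 with no UMI minimum (cells thinned to 500 UMIs) and 0.917 as a median over cells. The ratio of homozygous to heterozygous cells (1.04, or 1.036) became 1.041 with only cells of 5000 to 15000 UMIs, 1.044 of UMIs neither globin nor mitochondrial, 1.041 with the empty-droplet profile subtracted, 1.031 as a median over cells and 1.023 without rpl38, rpl29 and rps29, an alternative chosen after seeing the data. Directions turned for macrophage-like cells (0.981) at 1.007 with only 5000 to 15000 UMIs, and with no UMI minimum for LPM-like cells (0.963) at 1.035 and for p53 response-like cells between genotypes (1.02) at 0.998. The cause was not tested. Along globin the ratios turned to 0.979 (heterozygous) and 0.953 (homozygous) of all UMIs, whose denominator holds globin itself, and were 1.023 and 1.049 with only 5000 to 15000 UMIs. Of 88 alternative values between genotypes 87 lay above 1, but these recompute 10 ratios from the same 2 libraries. Of the 88, 57 stayed within the counting interval of the main value, 30 lay outside it and 1 turned direction. Members past the limit in RBC-like cells numbered 8, and 4 when counted per member UMI and 3 at 1.5-fold. Members higher in all 9 classes numbered 2, and 0 under either of these. Along globin the heterozygous count was 0, and 1 on thinned cells, and the homozygous 1 became 0 at 1.5-fold and 0 with at least 500 UMIs. No paired analysis was possible because each genotype has 1 library. Rare classes of 20 to 30 cells and members of low level, such as rps8b, limit what can be compared.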
